A study of Mus musculus with 27 samples.

Results

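The genes described are the nuclear-encoded subunits of oxidative phosphorylation, followed across 8 groups of mouse gut samples. Members were chosen by symbol alone, with no measured value in the choice: names that begin with Ndufa, Ndufb, Ndufc, Ndufs or Ndufv and a number, the 4 genes Sdha to Sdhd, and names that begin with Uqcr, with Cox and a digit of 4 to 8, or with Atp5. Assembly factors named Ndufaf and symbols ending in -ps were left out. The rule gave 84 of the 23420 genes in the count table, with 37 in complex I, 4 in complex II, 8 in complex III, 18 in complex IV and 17 in complex V. The C57BL/6 mice drank 15% ethanol (EtOH) or water (Control) for 8 weeks, and RNA came from the colon or the jejunum, either from organoids or from whole tissue. Organoids are epithelial cultures grown from gut stem cells in a gel, so by design they hold epithelium without the muscle, vessels and immune cells of the wall. The groups were EtOH colon organoids (n = 2) and Control colon organoids (n = 2), EtOH jejunum organoids (n = 4) and Control jejunum organoids (n = 4), EtOH colon tissue (n = 4) and Control colon tissue (n = 4), and EtOH jejunum tissue (n = 4) and Control jejunum tissue (n = 3), 27 libraries in all. The ethanol was given to the mice, and the labels do not say that it was added to the cultures.

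Oxidative phosphorylation is the last stage of aerobic energy production and takes place in the inner mitochondrial membrane. Complex I takes electrons from NADH and complex II takes them from succinate, complex III passes them to cytochrome c, and complex IV hands them to oxygen. The proton gradient built by complexes I, III and IV drives complex V, the ATP synthase. The subunits named here are made from nuclear genes and imported, while a small set of core subunits is encoded in mitochondrial DNA and falls outside the rule. In the gut, differentiated absorptive cells are rich in mitochondria, colonocytes burn butyrate made by bacteria, and small-intestinal enterocytes burn glutamine. By name the rule also takes in Ndufa4, now known as a complex IV subunit, Cox7a2l, a factor of respiratory supercomplexes, and Atp5s and Atp5sl, which are not counted as structural subunits of the ATP synthase. They are kept in the complex their symbol gives.

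Promoters of nuclear respiratory genes are known for sites of the nuclear respiratory factor NRF1 and of the oestrogen-related receptors, and 5 stretches that hold such letters show the kind of sequence in front of these genes. Promoter sequences from RefSeq (GRCm38.p6, which shares its coordinates with mm10), from 250 bases before to 50 bases after the start, matched 69 of the 84 members. The capitals mark the NRF1 letters GCGCATGCG in the top 4 and the oestrogen-related receptor letters TGACCTTGA in the last, each written 5′ to 3′ on the gene's own strand.
Atp5k: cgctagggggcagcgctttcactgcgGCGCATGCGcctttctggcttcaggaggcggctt
Ndufa11: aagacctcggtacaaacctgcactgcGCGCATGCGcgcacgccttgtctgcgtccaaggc
Cox6a1: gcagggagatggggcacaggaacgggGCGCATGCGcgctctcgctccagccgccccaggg
Atp5g2: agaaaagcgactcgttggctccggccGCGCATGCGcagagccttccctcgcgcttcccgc
Atp5g3: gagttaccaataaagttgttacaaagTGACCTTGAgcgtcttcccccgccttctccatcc

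These windows lie at chr5:108434416-108434475 (minus strand) for Atp5k, chr17:56717676-56717735 (plus strand) for Ndufa11, chr5:115349087-115349146 (minus) for Cox6a1, chr15:102671056-102671115 (minus) for Atp5g2 and chr2:73911345-73911404 (minus) for Atp5g3. Searched on both strands with no mismatch, the NRF1 letters were in 8 of the 69 member promoters (11.6%), against 1.95% of 27025 promoters. In the 4 printed, the next base makes them overlap their own reverse complement. The YY1 letters AAGATGGC were in 11 member promoters (15.9%, against 3.19% of all promoters) and the ETS letters CCGGAAG in 16 (23.2%, against 9.93%). The oestrogen-related receptor letters, TCAAGGTCA or its reverse, were in 2 (2.90%, against 0.466%), and the TATA letters TATAAA were in 7 (10.1%, against 15.7%). A match is a description of the letters and does not show that a factor binds. The 5 genes printed differed widely in level: Atp5g3 was the most abundant member of all and Atp5g2 the least abundant member of complex V.

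Libraries were made with QuantSeq, which reads a tag near the 3′ end of each polyadenylated transcript, so counts per 1000000 counts (CPM) compare transcript levels between genes without a length correction. Total counts ran from 1337068 to 16312562 per library. The ribosomal RNA precursor Rn45s took 18.3% to 84.3% of them, so levels are CPM of the counts outside Rn45s, of which there were 684906 to 7606668. Rn45s took 53.4% to 80.8% in EtOH jejunum tissue and 76.3% to 84.3% in Control jejunum tissue, against 18.3% to 48.3% in all other groups. The members together had 11527 to 215936 counts per library, and a count of 3 was worth 0.394 to 4.38 CPM. The 2 Control colon organoid libraries stood apart: they detected 9950 and 11779 genes, against 13541 and 15382 in EtOH colon organoids, and the median coefficient of variation of a member was 32.0% in Control colon organoids, 12.4% in EtOH colon organoids and 7.79% to 24.3% in the other groups. Of the colonocyte markers, 7 were in the table, and they summed to 8556 to 12712 CPM in EtOH colon organoids and to 1048 to 2620 CPM in Control colon organoids, where Slc37a2 had no count. The 6 macrophage markers summed to 115 to 447 CPM in EtOH colon organoids and 18.3 to 86.4 CPM in Control colon organoids (C1qb without a count in both groups, C1qa in the Control group), against at most 4.34 CPM in jejunum organoids and 59.9 to 162 CPM in whole tissue. The colon organoids thus did not lack these markers. The 6 epithelial markers, all detected in every group, summed to 4046 to 7786 CPM in organoids and 3601 to 6191 CPM in tissue. The counts of calls by segment and culture that rest on the Control colon organoids, and the members that lead them, are given with and without them.

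By group means the summed subunits were lowest in colon organoids, at about the same level in jejunum organoids and colon tissue, and in between in jejunum tissue. The 84 members summed to 19863 ± 455 CPM in EtOH colon organoids (SD, n = 2) and 16796 ± 3831 CPM in Control colon organoids (SD, n = 2). In jejunum organoids they summed to 34691 ± 1936 CPM with EtOH and 33946 ± 1651 CPM in Control (SD, n = 4 each). Colon tissue had 33243 ± 2200 CPM with EtOH and 30430 ± 3962 CPM in Control (SD, n = 4 each), and jejunum tissue 24391 ± 1068 CPM with EtOH (SD, n = 4) and 22776 ± 3452 CPM in Control (SD, n = 3). Every colon organoid library (14088 to 20185 CPM) lay below every jejunum organoid library (32249.8 to 37428 CPM) and below every colon tissue library (24802 to 36448 CPM). The Control jejunum tissue libraries (19838 to 26577 CPM) overlapped those of colon organoids. The gap between the tissues and the place of jejunum tissue depended on the scaling. With TMM factors, which correct for a few very abundant transcripts, the sums were 30565 CPM in EtOH colon tissue and 29592 CPM in EtOH jejunum tissue. With Rn45s in the total, jejunum tissue fell below colon organoids (closing section). In bulk samples fewer cells of a type and less RNA per cell cannot be told apart.

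In complexes I and II the means of jejunum tissue again lay in between, though its complex II libraries overlapped those of colon organoids. In complexes III and IV they did not. In complex V the means of jejunum tissue lay above colon organoids and below jejunum organoids, and its libraries overlapped colon tissue. Complex I, the NADH dehydrogenase, summed to 5284 ± 95.7 and 4714 ± 1129 CPM in EtOH and Control colon organoids and to 9822 ± 554 and 9612 ± 536 CPM in EtOH and Control jejunum organoids. It summed to 9515 ± 605 and 8882 ± 903 CPM in EtOH and Control colon tissue, and to 7693 ± 680 and 7292 ± 821 CPM in EtOH and Control jejunum tissue. Complex II, the succinate dehydrogenase, had 657 ± 155 CPM in EtOH colon organoids and 568 ± 117 CPM in Control colon organoids, against 1758 ± 173 CPM in EtOH jejunum organoids and 1785 ± 139 CPM in Control jejunum organoids. Its smallest sums in tissue were those of jejunum, 821 ± 128 CPM with EtOH and 787 ± 209 CPM in Control. Complex III had 2883 ± 93.6 and 1996 ± 478 CPM in EtOH and Control colon organoids, with no overlap between the 2 libraries of each group, and 4520 ± 241 and 4487 ± 272 CPM in EtOH and Control jejunum organoids. In tissue it had 4391 ± 230 and 3942 ± 453 CPM in EtOH and Control colon, against 2680 ± 187 and 2344 ± 427 CPM in EtOH and Control jejunum, so jejunum tissue lay within the range of colon organoids. For complex IV the means of jejunum tissue (4635 ± 516 CPM with EtOH, 4169 ± 416 CPM in Control) lay below those of colon organoids (5888 ± 340 CPM with EtOH, 5261 ± 839 CPM in Control). The libraries overlapped, as the lowest Control colon organoid had 4667 CPM and the highest EtOH jejunum tissue 5074 CPM. Colon tissue had the highest means (8587 ± 566 CPM with EtOH, 7901 ± 1408 CPM in Control). Complex V, the ATP synthase, had 5151 ± 268 and 4258 ± 1502 CPM in EtOH and Control colon organoids, against 11124 ± 424 and 10721 ± 562 CPM in EtOH and Control jejunum organoids. Its sums in tissue overlapped between the segments, with 9408 ± 1070 and 8448 ± 1072 CPM in EtOH and Control colon and 8562 ± 810 and 8183 ± 1632 CPM in EtOH and Control jejunum.

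**Figure D1:**
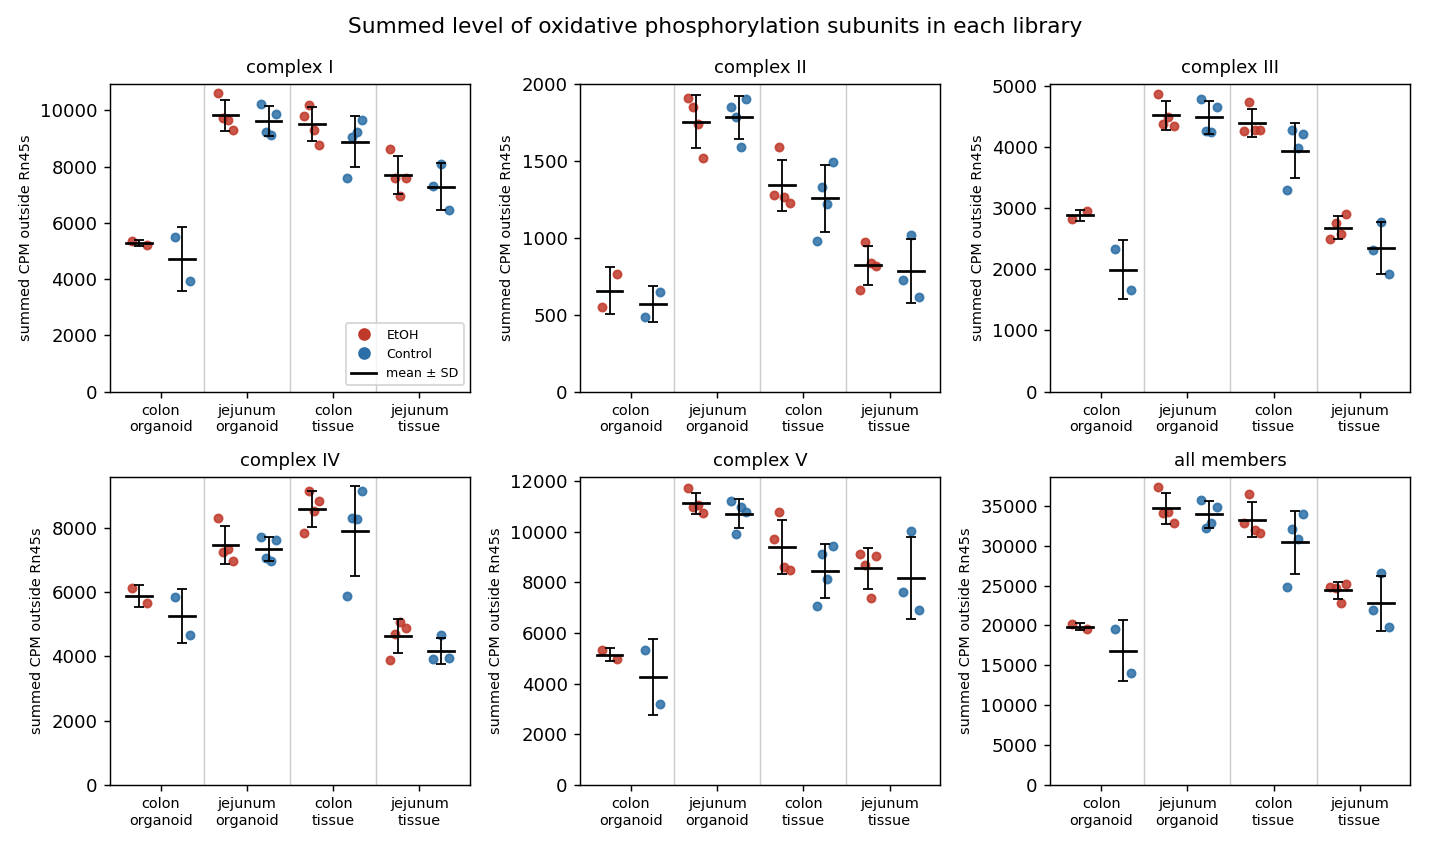
Summed CPM outside Rn45s of the subunits of each complex and of all 84 members, 1 point per library, with EtOH in red left of Control in blue and the mean ± SD as bars. In the panel of all members the 4 colon organoid libraries sit between 14088 and 20185 CPM, and the 8 jejunum organoid libraries between 32249.8 and 37428 CPM.

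The make-up of the chain differed between segments. Complex IV took 29.6% of the members' CPM in EtOH colon organoids (28.9% to 30.4%) and 31.6% in Control colon organoids (30.0% to 33.1%), against 21.5% in EtOH and 21.6% in Control jejunum organoids (21.2% to 22.2% over both). In tissue it took 25.9% in EtOH colon and 25.8% in Control colon (23.7% to 28.0% over both), against 19.1% (15.7% to 22.2%) in EtOH jejunum and 18.4% (17.5% to 19.8%) in Control jejunum. Every colon library had a larger complex IV share than every jejunum library of the same kind. Complex V ran the other way, with 25.9% in EtOH and 25.0% in Control colon organoids, 32.1% in EtOH and 31.6% in Control jejunum organoids, 28.2% in EtOH and 27.8% in Control colon tissue, and 35.0% in EtOH and 35.8% in Control jejunum tissue. These shares are ratios within a library, so the scaling of the libraries does not touch them. They are descriptions without a test, since a sum over chosen members was given none.

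**Figure D2:**
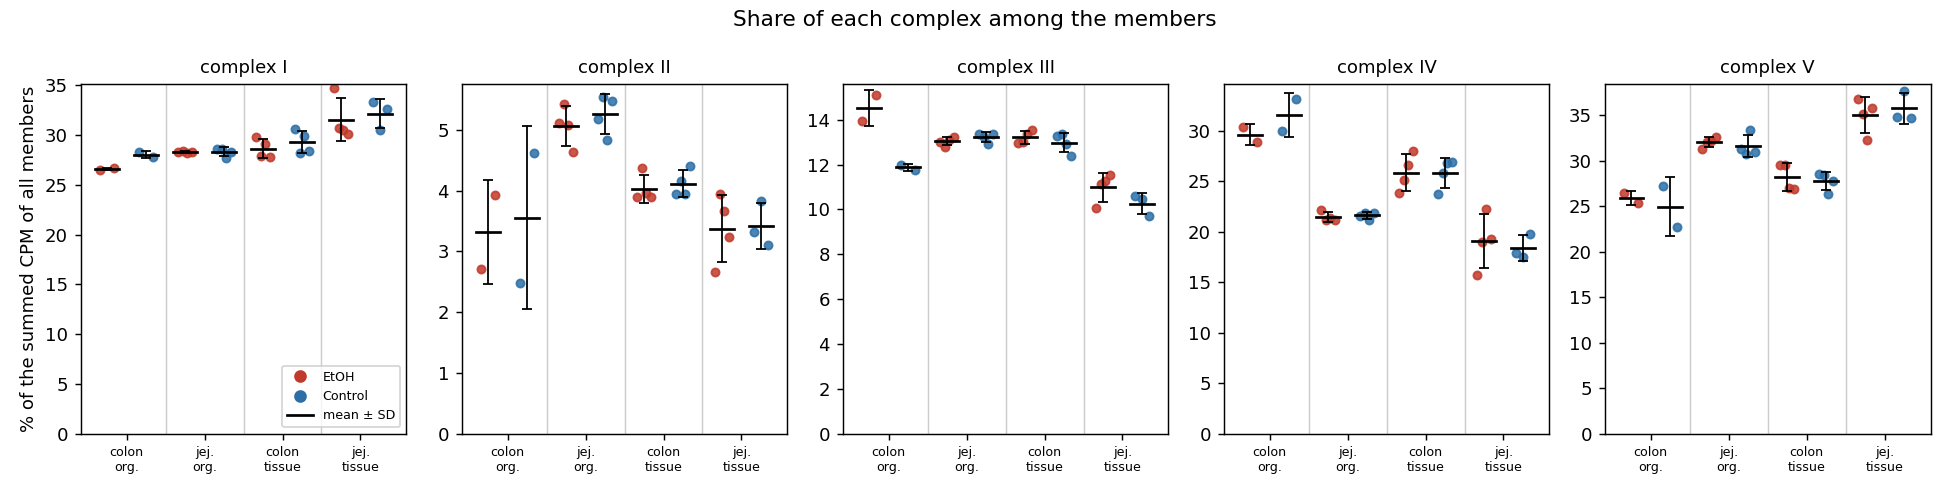
Share of each complex in the summed CPM of all members, in percent, 1 point per library, with EtOH in red left of Control in blue and the mean ± SD as bars. For complex IV the colon libraries lie above the jejunum libraries in organoids and in tissue, and for complex V they lie below.

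Within the complexes a few subunits carried much of the signal. By the mean of the 8 group means, the most abundant members were Atp5g3 (2178 CPM), 1 of 3 genes for the membrane ring protein c, and Atp5a1 (1895 CPM), the alpha subunit of the catalytic head of the ATP synthase. Uqcrh (1074 CPM), the hinge protein of complex III, and Atp5b (1065 CPM), the catalytic beta subunit, came next. Complex III continued with Uqcrq (587 CPM) and Uqcr10 (384 CPM), and its lowest member was Uqcr11 (199 CPM). Complex IV was led by Cox6a1 (843 CPM), Cox8a (742 CPM) and Cox4i1 (731 CPM), complex I by the accessory subunits Ndufa2 (497 CPM), Ndufs6 (484 CPM) and Ndufa6 (481 CPM), and complex II by its catalytic flavoprotein Sdha (385 CPM), followed by Sdhd (268 CPM), Sdhb (263 CPM) and Sdhc (206 CPM). At the low end were Ndufa4l2 (1.33 CPM), Atp5g2 (1.55 CPM) and Cox7b2 (0.374 CPM). Ndufs5 had no count in any library. In all, 75 members averaged at least 10 CPM, 9 averaged less, and 73 were detected in all 27 libraries.

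Part of this is limited by shared sequence. For 14 members the last 200 bases had a near-identical stretch in another annotated transcript. In Atp5h, Atp5k, Atp5g2, Cox5b, Cox6a1, Cox7c and Ndufb11, among others, that transcript did not overlap the 3′ end. Reads of such members may have been split or dropped in counting. In Cox5a, Ndufb2, Ndufb6 and Uqcrc2 it was the overlapping gene on the opposite strand, so these are also among the 11 below. For 4 members, Cox4i1, Cox7c, Ndufa13 and Ndufb8, a gene on the same strand overlapped the 3′ end. For 11 members a gene on the opposite strand overlapped the 3′ end, among them Ndufa2, Ndufa3, Ndufs1, Uqcrh and Ndufa4l2, and the sources used here do not state whether the counting used strand.

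Members differed greatly in how far they moved between groups. The ratio of the highest to the lowest group mean was 1.93 for Atp5sl, 1.94 for Uqcrh and 2.02 for Cox7a2, and reached 12.2 for Atp5j, 28.6 for Sdhd and 29.0 for Atp5s. Of the 83 members with counts, 41 peaked in jejunum organoids (19 in EtOH, 22 in Control), 19 in colon tissue (14 in EtOH, 5 in Control), 14 in jejunum tissue (8 in EtOH, 6 in Control) and 9 in colon organoids (4 in EtOH, 5 in Control). The lowest mean fell in colon organoids for 54 members (21 in EtOH, 33 in Control), in jejunum tissue for 28 (11 in EtOH, 17 in Control), and in EtOH jejunum organoids for 1.

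Colon organoids set against jejunum organoids showed the most uniform difference. Of 78 members tested, 62 were lower and 0 higher in colon organoids at an adjusted p under 0.05 in edgeR's quasi-likelihood test, where 24.7% of all 13170 genes tested were lower and 30.2% higher. The median log2 fold change of the members was -1.22, against 0.01 for all genes. The lower calls covered 31 of 36 subunits of complex I, 4 of 4 of complex II, 7 of 8 of complex III, 7 of 13 of complex IV and 13 of 17 of complex V. For 53 members every colon library lay below every jejunum library, and for 0 above (20.2% and 12.5% of all genes). Without the 2 Control colon organoid libraries, 60 of 79 members were lower and 3 higher, against 30.9% and 33.1% of 12433 genes. In both fits 57 members were called lower. Of the 7 stem cell and proliferation markers, all detected, 6 were lower in colon organoids, with sums of 248 to 331 CPM in EtOH and 264 to 724 CPM in Control, against 843 to 999 CPM in EtOH and 697 to 1064 CPM in Control jejunum organoids. All 9 enterocyte markers were lower too, with sums of 238 to 248 CPM in EtOH and 45.2 to 69.7 CPM in Control colon organoids (Apoa4 and Rbp2 without a count in Control), against 2592 to 8050 CPM in EtOH and 3643 to 7933 CPM in Control jejunum organoids. The part of these markers in the members' differences was not tested.

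Sdhd, the smaller of the membrane anchors of complex II, differed most. Its gene lies at chr9:50596357-50603812 on the minus strand (GRCm38). It had 49.9 and 47.6 CPM in EtOH colon organoids and 17.7 and 9.78 CPM in Control colon organoids, against 394, 395, 403 and 377 CPM in EtOH jejunum organoids and 313, 347, 370 and 425 CPM in Control jejunum organoids. No library of the 2 origins came near the other. The log2 fold change was -3.82 ± 0.36 (SE, adjusted p = 1.63e-06), and -3.03 ± 0.18 without the Control colon organoids (adjusted p = 2.31e-08). In tissue the same gene had 390, 490, 366 and 265 CPM in EtOH colon and 243, 402, 398 and 452 CPM in Control colon, against 281, 332, 278 and 263 CPM in EtOH jejunum and 283, 343 and 230 CPM in Control jejunum. These ranges overlapped and the change was -0.15 ± 0.17 (adjusted p = 0.441). The difference between the 2 contrasts is tested below for all members.

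The other subunits of complex II were lower in colon organoids by smaller amounts. Sdhb, the iron-sulphur subunit, had 132 and 175 CPM in EtOH colon organoids and 114 and 149 CPM in Control colon organoids, against 361 to 577 CPM in EtOH and 384 to 545 CPM in Control jejunum organoids (log2 fold change -1.97 ± 0.20, adjusted p = 4.24e-06). Sdhc, the other membrane anchor, fell by 1.62 and Sdha, which oxidises succinate, by 1.07 on the log2 scale (adjusted p = 2.15e-05 and 0.000475). The 4 subunits form 1 enzyme, and their levels were not lowered alike: the ratio of the highest to the lowest group mean was far larger for Sdhd than for its partners.

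In complex I the lowest values were those of Ndufb4, an accessory subunit of the membrane arm. It had 19.0 and 20.8 CPM in EtOH colon organoids and 29.5 and 0 CPM in Control colon organoids, against 115, 111, 125 and 93.1 CPM in EtOH and 119, 114, 114 and 107 CPM in Control jejunum organoids (log2 fold change -2.76 ± 0.47, adjusted p = 0.000269). Ndufb5, another membrane-arm subunit, changed by -2.18 ± 0.35 (adjusted p = 0.000164). The electron-carrying core subunits were lower too, with -1.49 for Ndufs1, which holds iron-sulphur clusters, and -1.06 for Ndufv1, which binds NADH (adjusted p = 0.000325 and 0.000701). Ndufa7 did not pass, with 237 and 193 CPM in EtOH colon organoids and 269 and 203 CPM in Control colon organoids, against 207 to 265 CPM in EtOH and 203 to 250 CPM in Control jejunum organoids (-0.23 ± 0.16, adjusted p = 0.25).

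In complexes III, IV and V the pattern was led by Uqcrc2, Cox7b and Atp5o. Uqcrc2, a core protein of complex III, had 96.7 and 173 CPM in EtOH colon organoids and 149 and 169 CPM in Control colon organoids, against 501 to 687 CPM in EtOH and 580 to 694 CPM in Control jejunum organoids (-2.31 ± 0.18, adjusted p = 4.01e-07). Uqcrfs1, the Rieske iron-sulphur protein, changed by -1.78 and Uqcrc1, the other core protein, by -1.05 (adjusted p = 4.42e-05 and 0.019). Cox7b, a small subunit of complex IV, had 121 and 100 CPM in EtOH colon organoids and 264 and 153 CPM in Control colon organoids, against 734, 721, 734 and 487 CPM in EtOH and 792, 711, 695 and 738 CPM in Control jejunum organoids (-2.37 ± 0.23, adjusted p = 2.17e-06). Atp5o, which joins the head of the ATP synthase to its outer stalk, had 175 and 186 CPM in EtOH colon organoids and 60.9 and 25.7 CPM in Control colon organoids, against 407 to 467 CPM in EtOH and 402 to 514 CPM in Control jejunum organoids (-2.32 ± 0.42, adjusted p = 0.000451). Without the Control colon organoids the change of Atp5o was -1.33 ± 0.16 (adjusted p = 9.53e-06), and those of Uqcrc2, Cox7b and Ndufb4 were -2.28, -2.62 and -2.52, each called. The catalytic subunits Atp5a1 and Atp5b changed by -1.22 and -2.14 (adjusted p = 0.000107 and 0.000267).

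Only 3 of the 78 values were positive, and none passed: Cox8a (0.32 ± 0.15, adjusted p = 0.0755), Ndufa12 (0.39 ± 0.21, adjusted p = 0.125) and Atp5d (0.06 ± 0.19, adjusted p = 0.815). Without the Control colon organoids these 3 were called higher, with 0.49, 0.43 and 0.58 (adjusted p = 0.0111, 0.0347 and 0.00226). Cox8a, the common form of the smallest complex IV subunit, had 1127 and 1085 CPM in EtOH colon organoids and 1050 and 855 CPM in Control colon organoids, against 890, 696, 698 and 785 CPM in EtOH and 672, 674, 662 and 718 CPM in Control jejunum organoids. On plain CPM only the Control library with 855 CPM overlapped the jejunum range. Uqcrh passed in none of the 4 comparisons of segment or culture, with changes of -0.22 to -0.49 and adjusted p of 0.0683 to 0.136.

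In whole tissue the same contrast split the members instead of lowering them. Of 78 tested, 32 were higher and 20 lower in colon tissue, against 33.2% and 27.2% of all 13405 genes, so the shares were near those of all genes in the lower direction and somewhat above them in the higher. The median log2 fold change was 0.31 for the members and 0.18 for all genes. For 10 members every colon library lay above every jejunum library and for 13 below (14.0% and 13.8% of all genes). Without TMM factors the median of all genes moved to 0.74, and the members split into 54 higher and 11 lower (52.9% and 15.8% of all genes), so directions near 0 in tissue depend on the scaling. Under that scaling Sdhd and Ndufa4 turned to 0.39 and 0.42.

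Atp5j had the largest difference among well-detected members. It encodes coupling factor 6, part of the outer stalk of the ATP synthase, at chr16:84827866-84835625 (minus strand). It had 218, 209, 134 and 172 CPM in EtOH colon tissue and 132, 152, 103 and 135 CPM in Control colon tissue, against 9.52, 31.1, 19.9 and 12.9 CPM in EtOH jejunum tissue and 22.5, 73.0 and 13.9 CPM in Control jejunum tissue (2.18 ± 0.32, adjusted p = 1.58e-05). Ndufa7, an accessory subunit of complex I at chr17:33824572-33838317 (plus strand), had 207, 225, 191 and 267 CPM in EtOH colon tissue and 152 to 155 CPM in Control colon tissue, against 21.0, 53.7, 43.2 and 60.3 CPM in EtOH and 29.8, 36.5 and 36.4 CPM in Control jejunum tissue (1.69 ± 0.19, adjusted p = 2.74e-07). Colon and jejunum did not overlap for either gene. Cox8a was higher in colon tissue as well, with 750 to 1401 CPM in EtOH and 710 to 965 CPM in Control, against 88.1 to 359 CPM in EtOH jejunum and 179 to 318 CPM in Control jejunum (1.51 ± 0.26, adjusted p = 5.12e-05). Ndufb11 (1.67) and Atp5h (1.57), a stalk subunit of the ATP synthase, were also among the 6 highest values, and both have a near-identical transcript copy.

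The 6 members with the lowest values in colon tissue were called lower in colon organoids too, as were 62 of all 78 members tested there. Ndufs6, a zinc-binding accessory subunit of complex I, had 555, 455, 619 and 459 CPM in EtOH colon tissue and 458, 530, 572 and 457 CPM in Control colon tissue, against 1127, 842, 717 and 712 CPM in EtOH jejunum tissue and 919, 1061 and 703 CPM in Control jejunum tissue (-1.29 ± 0.16, adjusted p = 8.22e-07). In organoids it changed by -0.91 (adjusted p = 0.00139). Atp5e, the epsilon subunit of the central stalk, had 506 to 1011 CPM in EtOH and 647 to 782 CPM in Control colon tissue, against 858 to 1267 CPM in EtOH and 836 to 2266 CPM in Control jejunum tissue (-1.23 ± 0.19, adjusted p = 1.32e-05). Its ranges overlapped on plain CPM. Ndufb3 (-1.74 ± 0.17), Atp5k (-1.69 ± 0.20), Atp5a1 (-1.07 ± 0.18) and Ndufa2 (-1.01 ± 0.15) completed the 6 lowest, with adjusted p from 3.34e-08 to 3.66e-05, and in organoids their changes were -0.92, -1.22, -1.22 and -0.66, each also called, though Ndufa2 was not without the Control colon organoids (-0.26, adjusted p = 0.147). The 9 markers of small-intestinal enterocytes, all detected, summed to 217 to 853 CPM in EtOH colon tissue and 309 to 1209 CPM in Control colon tissue, against 18095 to 36340 CPM in EtOH jejunum tissue and 22682 to 30125 CPM in Control jejunum tissue. The 10 smooth muscle markers, all detected, summed to 4259 to 24286 CPM in EtOH and 4346 to 18077 CPM in Control colon tissue, against 307 to 1909 CPM in EtOH and 642 to 2624 CPM in Control jejunum tissue, and all 10 were called higher in colon tissue. Their part in the members' differences was not tested.

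**Figure D3:**
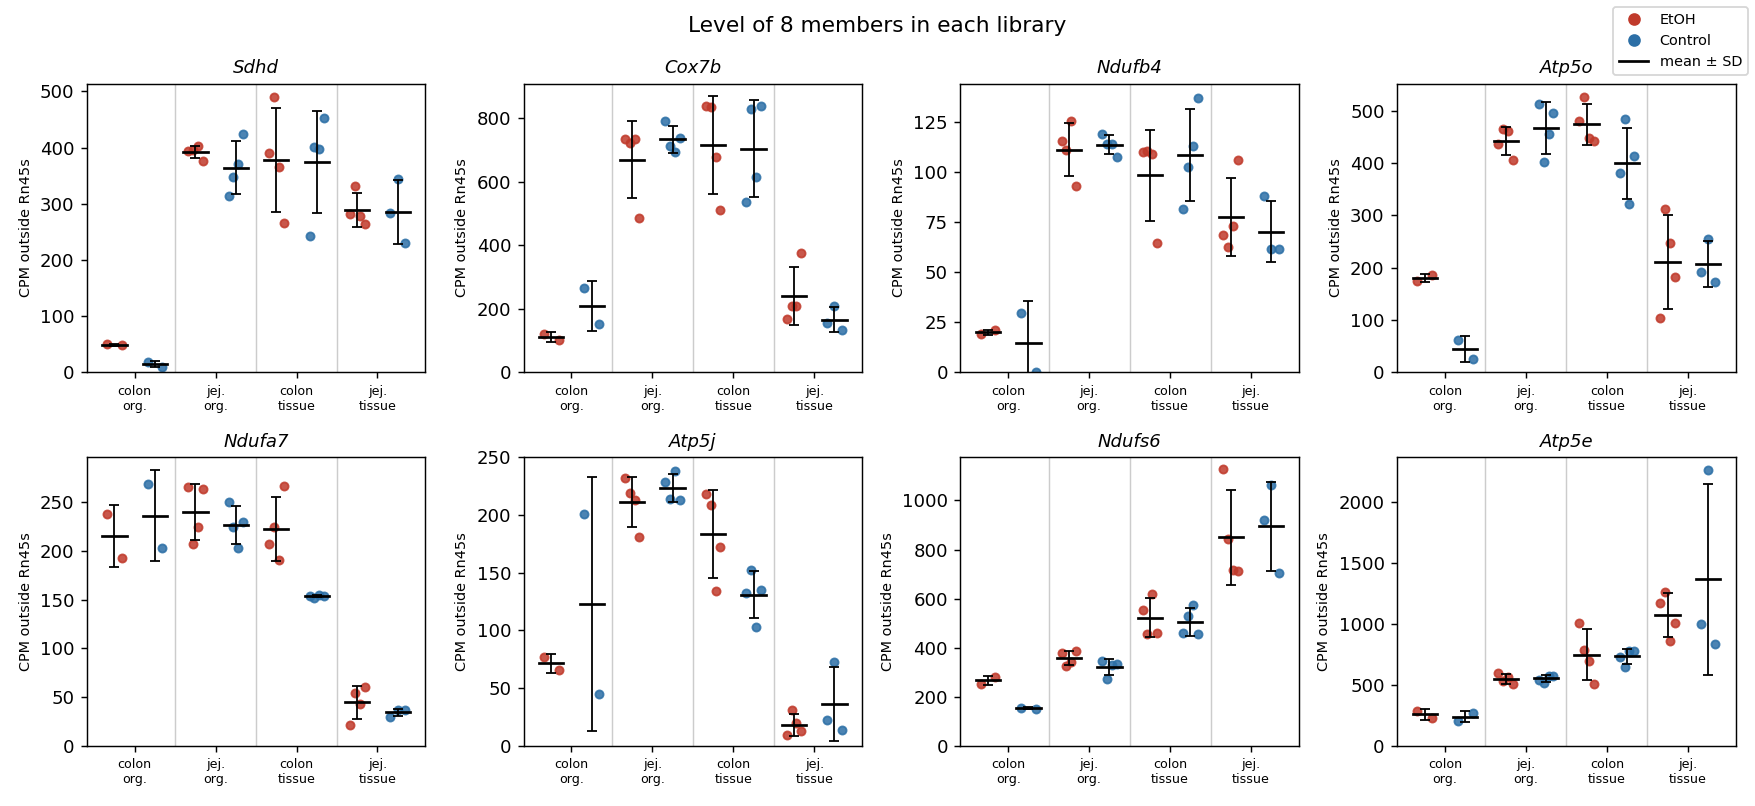
CPM outside Rn45s of 8 members in each library, with EtOH in red left of Control in blue and the mean ± SD as bars. Sdhd, Cox7b, Ndufb4 and Atp5o are low in colon organoids, Ndufa7 and Atp5j are low in jejunum tissue, and Ndufs6 and Atp5e are highest in jejunum tissue.

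Whether the colon-jejunum gap itself differed between organoids and tissue was tested over all 27 libraries. Of 80 members tested, 63 had a lower gap in organoids and 0 a higher one, against 31.0% and 19.7% of all 15034 genes, and the median difference was -1.69 for the members and -0.35 for all genes. With the Control colon organoids left out and the gap taken over the EtOH groups, 57 were lower and 1 higher of 80, against 24.2% and 24.1% of 14620 genes, with a median of -1.44 for the members and -0.002 for all genes. The difference was -4.06 ± 0.26 for Sdhd (adjusted p = 3.02e-12), -3.88 ± 0.31 for Cox7b (adjusted p = 9.56e-11), -3.78 ± 0.31 for Ndufb11, -3.66 ± 0.46 for Atp5j and -3.43 ± 0.37 for Atp5h. Without the Control colon organoids these were -3.05, -3.81, -3.02, -4.52 and -3.11, each called. Cox7b changed sign with the kind of sample: it was lower in colon organoids (above) and higher in colon tissue, with 837, 834, 677 and 511 CPM in EtOH and 536, 828, 615 and 837 CPM in Control colon tissue, against 168, 208, 207 and 375 CPM in EtOH and 154, 209 and 133 CPM in Control jejunum tissue (1.26 ± 0.21, adjusted p = 3.99e-05). For Ndufs6 (0.15 ± 0.20), Atp5e (-0.32 ± 0.25), Atp5a1 (-0.39 ± 0.22) and Ndufb3 (0.55 ± 0.24) the difference of the gap did not pass (adjusted p from 0.0548 to 0.606).

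Culture against tissue was then compared within each segment. Both comparisons use the same organoid and tissue libraries as the segment comparisons, so their values are set side by side and not counted as further evidence. In colon, 53 of 78 members were lower and 0 higher in organoids than in tissue, against 20.5% and 16.6% of 14375 genes, with a median of -1.09 for the members and -0.22 for all genes. For 36 members every organoid library lay below every tissue library and for 0 above (16.4% and 6.43% of all genes). Taking the donor number within each treatment as a block, since such samples may come from the same mouse, left 13 lower and 0 higher, against 3.53% and 1.98% of all genes, while the members' median stayed at -1.05 and 44 of 78 had an unadjusted p under 0.05. Without the 2 Control colon organoid libraries 44 were lower and 0 higher, against 21.2% and 17.7% of 14107 genes. In both fits 40 members were called lower. Sdhd (-3.74 ± 0.46, adjusted p = 6.07e-05), Ndufb4 (-2.57 ± 0.54), Cox7b (-2.31 ± 0.28) and Atp5o (-2.22 ± 0.42) again had the lowest values among well-detected members. Without the Control colon organoids they were -2.83, -2.19, -2.57 and -1.29, each called. Cox6b2 (-2.93 ± 0.91, adjusted p = 0.0209) was called from at most 12.1 CPM in colon tissue, and not without the Control colon organoids (-1.69 ± 0.71, adjusted p = 0.0789). The 3 positive values with the smallest p were Ndufa12 (0.51 ± 0.23), Cox6b1 (0.25 ± 0.24) and Ndufa7 (0.19 ± 0.19), none of them called.

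In jejunum the direction was the opposite for most members. Of 78 tested, 51 were higher and 14 lower in organoids, against 38.3% and 37.8% of 12236 genes, with a median of 0.82 for the members and 0.04 for all genes. For 39 members every organoid library lay above every tissue library and for 8 below (24.0% and 21.9% of all genes). The higher calls were 25 of 36 in complex I, 3 of 4 in complex II, 6 of 8 in complex III, 7 of 13 in complex IV and 10 of 17 in complex V. Atp5j led, with 232, 219, 213 and 181 CPM in EtOH and 229, 214, 238 and 213 CPM in Control jejunum organoids, against the 9.52 to 73.0 CPM of jejunum tissue above (2.95 ± 0.26, adjusted p = 2.33e-09). Ndufa7 followed (2.28 ± 0.17, adjusted p = 4.8e-11), then Atp5g1 (1.94 ± 0.19), Ndufb11 (1.87 ± 0.18) and Ndufc2 (1.86 ± 0.15), a complex I subunit. The members lower in jejunum organoids were partly those most abundant in jejunum tissue: Ndufs6 (-1.61 ± 0.14, adjusted p = 3e-10), Atp5k (-1.53 ± 0.17), Atp5e (-1.37 ± 0.16), Ndufb3 (-1.30 ± 0.14) and Ndufa3 (-1.22 ± 0.14). The 7 stem cell and proliferation markers, all detected, summed to 843 to 999 CPM in EtOH and 697 to 1064 CPM in Control jejunum organoids, against 221 to 392 CPM in EtOH and 136 to 339 CPM in Control jejunum tissue. The 9 enterocyte markers summed to 2592 to 8050 CPM in EtOH and 3643 to 7933 CPM in Control jejunum organoids, below the tissue values given above. Their part in the result was not tested.

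**Figure D4:**
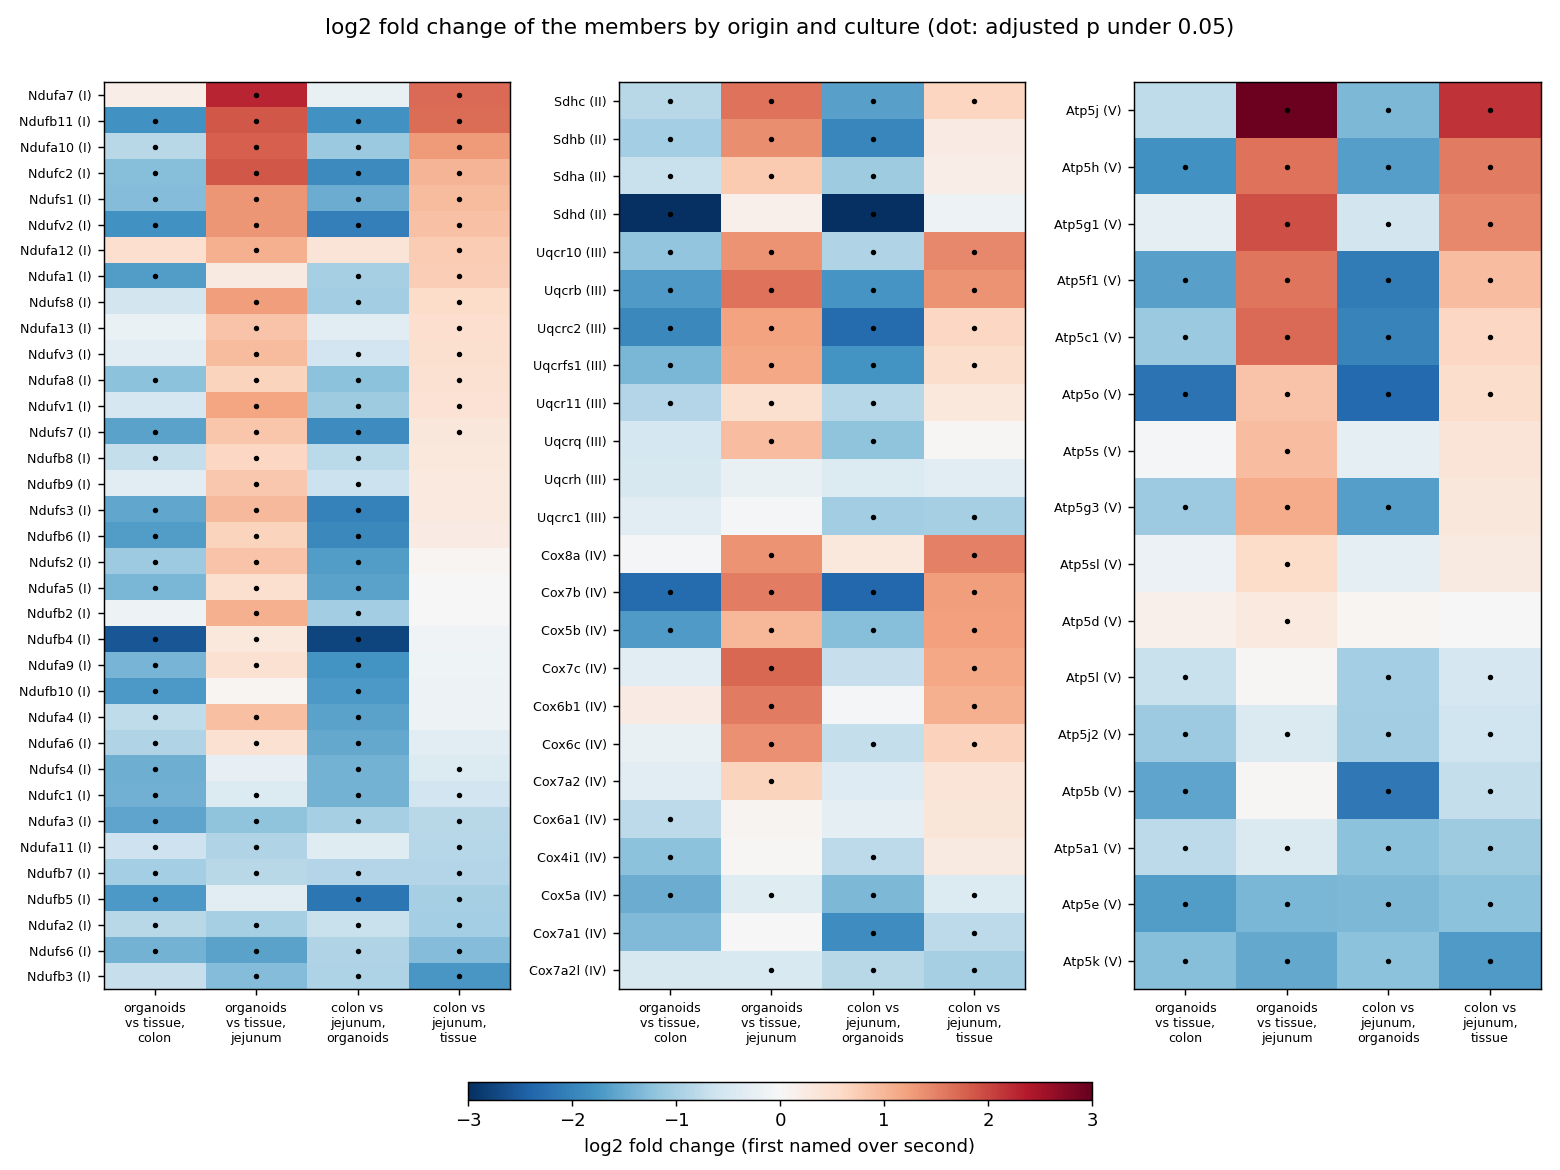
log2 fold change of the members that averaged at least 10 CPM, in 4 comparisons (columns, with the group named before "vs" on top of the ratio), grouped by complex, where a dot marks an adjusted p under 0.05 and the colours end at -3 and 3. The columns for colon organoids against tissue and colon against jejunum organoids are mostly blue, and the column for jejunum organoids against tissue is mostly red apart from Ndufs6, Ndufb3, Atp5e, Atp5k and a few others.

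The catalytic and most abundant subunits of complex V show how the members part. Atp5g3, at chr2:73908447-73911326 (minus strand), had 1444 and 1133 CPM in EtOH colon organoids and 1657 and 789 CPM in Control colon organoids, 4000, 3527, 3573 and 3943 CPM in EtOH jejunum organoids and 3567, 2812, 3674 and 3303 CPM in Control jejunum organoids. In tissue it had 2632 to 3248 CPM in EtOH and 1715 to 2661 CPM in Control colon, against 860 to 2066 CPM in EtOH and 989 to 1958 CPM in Control jejunum. Atp5a1 had its highest library in jejunum tissue instead, with 1299 and 1235 CPM in EtOH and 1046 and 754 CPM in Control colon organoids, 2102 to 2304 CPM in EtOH and 2185 to 2307 CPM in Control jejunum organoids, 1514 to 2093 CPM in EtOH and 1454 to 1998 CPM in Control colon tissue, and 1910 to 3843 CPM in EtOH and 2352 to 2468 CPM in Control jejunum tissue. In jejunum, organoids against tissue, Atp5g3 changed by 1.11 ± 0.17 (adjusted p = 3.39e-06) and Atp5a1 by -0.44 ± 0.14 (adjusted p = 0.00786), while Atp5b did not pass (0.05 ± 0.15, adjusted p = 0.785). The 3 proteins sit in 1 enzyme in fixed ratios, and their transcripts did not keep a fixed ratio across these groups.

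Several subunits of complex IV come as paired genes, of which 1 is common and the other is known from muscle, testis or lung. The common forms prevailed everywhere. Cox7a1, the heart and skeletal muscle form, was the exception in being well detected: it made up 3.19% ± 1.95 of Cox7a1 and Cox7a2 together in EtOH colon organoids and 14.4% ± 20.3 in Control colon organoids (SD, n = 2 each), where the 2 libraries had 0 and 117 CPM. It made up 15.1% ± 1.35 in EtOH and 11.8% ± 3.76 in Control jejunum organoids, 9.01% ± 1.08 in EtOH and 10.8% ± 2.75 in Control colon tissue (SD, n = 4 each), and 21.8% ± 3.96 (SD, n = 4) in EtOH and 16.8% ± 1.34 (SD, n = 3) in Control jejunum tissue. Cox7a1 had 105 to 140 CPM in EtOH and 61.9 to 139 CPM in Control jejunum organoids. The 10 smooth muscle markers summed to at most 14.2 CPM there. The 8 striated muscle markers summed to 26.7 to 36.9 CPM in EtOH and 27.9 to 34.1 CPM in Control jejunum organoids. Of these 8, 3 and 5 had no count. In jejunum tissue they summed to 8.76 to 46.2 CPM in EtOH and 24.8 to 163 CPM in Control. In colon organoids, where EtOH had the smallest share of Cox7a1, they summed to 199 to 491 CPM in EtOH. In Control colon organoids the sums were 35.4 to 221 CPM (5 of the 8 without a count in EtOH, 6 in Control). The part of these markers was not tested. Cox7a1 was lower in colon than in jejunum organoids (-1.86 ± 0.73, adjusted p = 0.0433) and in colon than in jejunum tissue (-0.78 ± 0.25, adjusted p = 0.0111).

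Cox8b, the muscle form of Cox8a, was found in colon tissue, with 3.41, 1.39, 5.03 and 3.22 CPM in EtOH and 6.30, 1.70, 4.94 and 3.86 CPM in Control. It had no count in the 4 colon organoid libraries, so it was at least 8.76-fold lower there than in colon tissue, taking 3 counts over the 4 organoid libraries (0.426 CPM) as the floor. It was at 0 in 7 of 8 jejunum organoid libraries and in 5 of 7 jejunum tissue libraries, and it was higher in colon than in jejunum tissue (3.39 ± 0.74, adjusted p = 0.000582). The smooth muscle markers were also higher in colon than in jejunum tissue, as were those of other cell types. The 6 fibroblast markers summed to 479 to 1900 CPM in EtOH and 823 to 2776 CPM in Control colon tissue. In jejunum tissue they summed to 70.1 to 222 CPM in EtOH and 116 to 394 CPM in Control. The pericyte and the enteric neuron and glia markers ran the same way. The 8 adipocyte markers had medians of 15.2 and 51.4 CPM in EtOH and Control colon tissue, against 134 and 215 CPM in jejunum tissue. The 8 striated muscle markers summed to 16.4 to 63.5 CPM in EtOH and 31.9 to 63.9 CPM in Control colon tissue (1 and 2 without a count). These sums overlapped those of jejunum tissue, 8.76 to 46.2 CPM in EtOH and 24.8 to 163 CPM in Control. The part of any of these lists was not tested. Cox6b2, known from testis, made up 5.07% of Cox6b1 and Cox6b2 in EtOH and 5.96% in Control jejunum tissue, 1.27% in EtOH and 1.96% in Control colon tissue, and at most 0.77% in the organoid groups. Its partner Cox6b1 had 115 to 290 CPM in EtOH and 144 to 291 CPM in Control jejunum tissue and 338 to 924 CPM in all other groups. Cox4i2, the lung form of Cox4i1, had no count in organoids and at most 2.44 CPM in tissue, and Cox6a2, the muscle form of Cox6a1, made up at most 0.22% of the pair in a group. The testis forms Cox7b2 and Cox8c were counted in 3 libraries each. Cox8c had 27 counts, all in colon organoids.

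Ndufa4l2, a paralogue of Ndufa4 known to be induced by low oxygen, had few counts anywhere and none in jejunum tissue. It had 2.56, 1.60, 1.32 and 6.40 CPM in EtOH and 2.39, 7.59, 3.21 and 1.09 CPM in Control jejunum organoids and no count in the 7 jejunum tissue libraries, so it was at least 23.6-fold higher in jejunum organoids, with 3 counts over the 7 tissue libraries as the floor. In colon organoids it had 1.41 and 2.97 CPM with EtOH, from 4 counts each, and no count in the 2 Control libraries, against 0.198 to 1.03 CPM with EtOH and 0.565 to 1.89 CPM in Control colon tissue. Its 3′ end overlaps Shmt2 on the other strand. Among the c-ring genes, which encode the same mature protein, Atp5g1 made up 15.5% of Atp5g1 and Atp5g3 in EtOH and 11.8% in Control colon organoids, 6.98% in EtOH and 6.76% in Control jejunum organoids, 8.14% in EtOH and 8.30% in Control colon tissue, and 3.78% in EtOH and 4.13% in Control jejunum tissue, and Atp5g2 stayed at no more than 3.66 CPM in any library.

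Other mitochondrial genes, taken from lists of named pathways, moved with the subunits in organoids. In colon organoids against jejunum organoids 15 of 18 electron carriers and further subunits were lower and 0 higher, and so were 19 and 0 of 22 genes of the citric acid cycle and pyruvate dehydrogenase, where 24.7% of all genes were lower and 30.2% higher. Of 45 assembly factors 27 were lower and 1 higher, of 30 mitochondrial ribosomal proteins 24 and 1, and of 24 outer membrane and import genes 17 and 1. Without the Control colon organoids 16, 20, 30, 25 and 20 genes of these 5 lists were lower and 1, 0, 1, 0 and 2 higher (30.9% and 33.1% of all genes). Cs, the citrate synthase often used as a measure of mitochondrial content, changed by -2.02 ± 0.18 (adjusted p = 1.39e-06), Cox20, an assembly factor of complex IV, by -3.50 ± 0.22 (adjusted p = 5.01e-08) and Slc25a5, an ADP/ATP carrier, by -2.65 ± 0.19 (adjusted p = 1.54e-07). Another ADP/ATP carrier, Slc25a4, was higher (2.61 ± 0.30, adjusted p = 1.12e-05), as was the complex IV assembly factor Sco1 (2.56 ± 0.25, adjusted p = 2.46e-06). Cyc1, the cytochrome c1 of complex III, changed by -1.07 ± 0.23 (adjusted p = 0.00151), cytochrome c itself (Cycs) by -1.60 (adjusted p = 0.000196) and Ndufab1, the acyl carrier protein bound in complex I, by -2.73 ± 0.49 (adjusted p = 0.000438).

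The regulators did not move as a block. Of 20 regulators of mitochondrial biogenesis tested between colon and jejunum organoids, 6 were lower and 2 higher, near the 24.7% of all genes that were lower and below the 30.2% that were higher. Without the Control colon organoids 11 were lower and 2 higher (30.9% and 33.1% of all genes). Tfam, which packages and transcribes mitochondrial DNA, had 30.6 and 20.1 CPM in EtOH and 53.0 and 55.0 CPM in Control colon organoids, against 117 to 135 CPM in EtOH and 133 to 157 CPM in Control jejunum organoids (-2.04 ± 0.20, adjusted p = 2.11e-06). Nrf1, the factor whose letters are printed above, was higher in colon organoids (1.05 ± 0.23, adjusted p = 0.00167), and Ppargc1a, a coactivator of these genes, did not pass (-0.61, adjusted p = 0.486). Ppargc1a was lower in organoids than in tissue in colon (-2.39, adjusted p = 0.00359) and in jejunum (-1.90, adjusted p = 7.65e-07), with 8.90 to 20.3 CPM in EtOH and 11.5 to 52.7 CPM in Control jejunum organoids against 44.4 to 53.2 CPM in EtOH and 65.6 to 92.0 CPM in Control jejunum tissue. Tfam was lower in organoids in colon (-1.05, adjusted p = 0.00782) and higher in jejunum (1.96 ± 0.21, adjusted p = 1.29e-08). In jejunum organoids against tissue, 31 of 45 assembly factors were higher and 6 lower, as were 20 and 3 of 24 outer membrane and import genes and 13 and 1 of 18 electron carriers and further subunits, while the citric acid cycle genes split into 12 higher and 8 lower of 22 (38.3% and 37.8% of all genes were higher and lower). In colon organoids against tissue, 16 of 23 citric acid cycle genes were lower and 0 higher, and 11 of 44 assembly factors were lower and 1 higher, against 20.5% lower and 16.6% higher among all genes. The share of assembly factors called lower was near that of all genes. In colon against jejunum tissue, 11 and 9 of 23 citric acid cycle genes and 19 and 10 of 44 assembly factors were higher and lower, against 33.2% and 27.2% of all genes.

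Ethanol was the treatment of the study, and no member was called between EtOH and Control in any of the 4 kinds of sample. In EtOH against Control colon organoids 0 of 75 members were called, in jejunum organoids 0 of 78, in colon tissue 0 of 78 and in jejunum tissue 0 of 76. Among all genes 0.0% were called in either direction in colon organoids (10823 tested), jejunum organoids (10640) and colon tissue (12799), and 0.01% were called higher and 0.0% lower in jejunum tissue (9996). At an unadjusted p under 0.05 the edgeR test had 11 members of 852 genes in colon organoids, 3 of 760 in jejunum organoids, 2 of 679 in colon tissue and 0 of 571 in jejunum tissue. DESeq2 called 134, 9, 10 and 5 genes in these comparisons, 0 of them members.

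The point estimates leaned upward in colon organoids. There 54 of 75 members had a positive value, with a median of 0.51 against 0.11 for all genes. This rested on the Control libraries: without Control library 1 the median was 0.95 against 0.45 for all genes (60 of 76 positive), and without Control library 2 it was 0.19 against 0.16 (47 of 75 positive). The members' medians were -0.003, 0.04 and 0.10 in jejunum organoids, colon tissue and jejunum tissue. Atp5o had the smallest p, with 175 and 186 CPM in EtOH and 60.9 and 25.7 CPM in Control colon organoids (2.26 ± 0.59, adjusted p = 0.626). Uqcrh had 1284 and 1210 CPM in EtOH and 621 and 695 CPM in Control colon organoids (1.17 ± 0.32, adjusted p = 0.626). Downward, Atp5s had 2.81 and 0.743 CPM in EtOH and 30.9 and 72.1 CPM in Control colon organoids (-4.45 ± 1.31, adjusted p = 0.626). The groups did not overlap for these 3 genes. With 2 libraries a group that was common, at 42.1% of all 10823 genes tested. It held for 37 members upward and 8 downward of 75, against 2807 genes upward and 1749 downward of the 10823. No adjusted p came near 0.05. When jejunum organoids were put in the same fit, which assumes 1 spread for all organoid libraries, 21 members were called higher and 2 lower, against 12.6% and 4.62% of all genes. In the fit of colon organoids alone there were 18 higher and 2 lower calls of 76 without Control library 1 (14.5% and 4.1% of all genes). Without Control library 2 there were 2 higher and 1 lower of 75 (4.34% and 1.21% of all genes). The lone Control library is then assumed to vary like the EtOH libraries. The colonocyte and macrophage markers given above, which were also higher in EtOH colon organoids, move with this lean, and their part in it was not tested.

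In the other samples no adjusted p was near 0.05 either. The smallest p in jejunum organoids was that of Atp5k (0.31 ± 0.11, adjusted p = 0.645), with 246, 272, 279 and 280 CPM in EtOH and 238, 177, 237 and 210 CPM in Control. The largest estimate there was that of Cox6b2 (-1.07 ± 0.43, adjusted p = 0.663), a member with at most 7.55 CPM there. In colon tissue the smallest p was that of Ndufa7 (0.51 ± 0.17, adjusted p = 0.89), for which the 4 EtOH libraries (191 to 267 CPM) lay above the 4 Control libraries (152 to 155 CPM). The groups were apart in this way for 1 of 78 members upward and 0 downward, against 3.46% of 12799 genes in either direction. In jejunum tissue the smallest p was that of Cox7b (0.52 ± 0.29, adjusted p = 0.887), and the largest estimates were those of Atp5j (-0.90 ± 0.51, adjusted p = 0.889) and Atp5s (-0.88 ± 0.53, adjusted p = 0.907). Sdhd, the member with the widest difference by origin, gave 2.03 ± 0.87 in colon organoids (adjusted p = 0.632).

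Whether the ethanol effect differed between segments was tested too. In organoids the difference, colon minus jejunum, was called for 10 members upward and 2 downward of 78, against 7.6% and 2.0% of all 13170 genes, and it was 2.32 ± 0.40 for Atp5o (adjusted p = 0.00505), 1.88 ± 0.33 for Sdhd (adjusted p = 0.00552), 1.35 ± 0.28 for Ndufa4, 1.30 ± 0.26 for Ndufa9, 1.24 ± 0.25 for Ndufa10, 1.20 ± 0.22 for Uqcrh, -4.39 ± 0.64 for Atp5s (adjusted p = 0.00202) and -1.38 ± 0.35 for Ndufb3 (adjusted p = 0.0301). This fit assumes 1 spread for all organoid libraries. Without Control colon organoid library 1 it called 42 members upward and 4 downward of 80, against 26.3% and 8.13% of all genes. Without library 2 it called 12 and 7 of 79, against 14.7% and 8.23%, which is near the share of all genes. With weights that let each group have its own spread, limma-voom called 0 members and 0.0% of genes in either direction, with 5 members at an unadjusted p under 0.05. In tissue the difference was called for 0 of 78 members and 0.0% of genes in either direction, with 2 members and 855 genes at an unadjusted p under 0.05, and DESeq2 called 2 genes, 0 of them members.

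**Figure D5:**
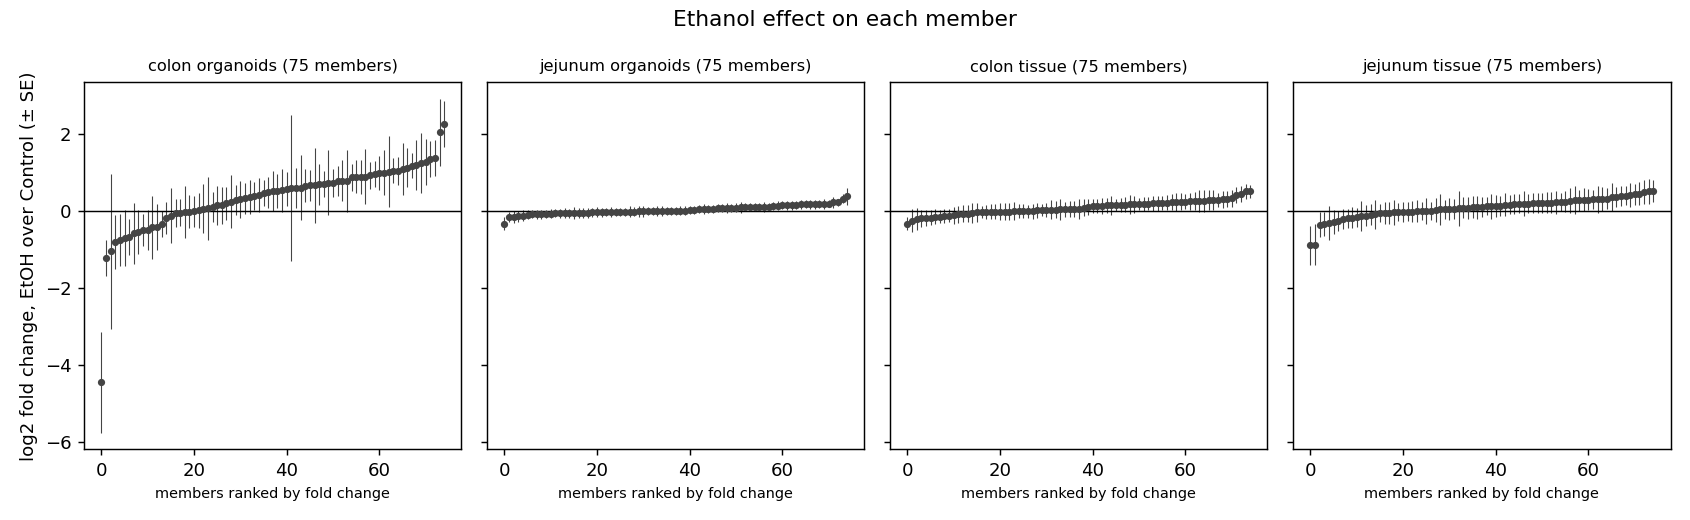
log2 fold change of EtOH over Control for the 75 members that averaged at least 10 CPM, ranked within each kind of sample, with bars of ± 1 SE from edgeR. The values spread from -4.45 to 2.26 in colon organoids, with 2 libraries a group, and stay within -0.90 and 0.52 in the other panels.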

How the data were processed

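RNA from organoids and whole tissue was read with a 3′ tag protocol, and the authors deposited a table of whole-number counts per gene for all 27 libraries, which was used. A deposited normalized table was not used. Per the submitters' processing notes, Trimmomatic 0.32, BWA, HTSeq, limma and edgeR were used with the mm10 build. The sources used here do not state whether counting used strand. The members and gene lists were chosen with earlier results of these data known.

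Rn45s was left out of library sizes. Levels are CPM, counts per 1000000 remaining counts. Tests were edgeR 4.0.16 quasi-likelihood F-tests (R 4.3.3, two-sided, TMM, filterByExpr, robust) over all genes kept, with Benjamini-Hochberg adjustment and calls at an adjusted p under 0.05. They were run on simulated counts with the same dispersion in every gene and library, which does not cover groups of unequal spread. Ethanol effects were fitted on the 2 groups compared. Segment and culture effects were fitted on 4 groups, with treatment as an additive term. Differences of effects were contrasts of groups. Alternatives were other scalings, no filter, DESeq2 1.42.0, limma-voom (limma 3.58.1), blocks, single treatments and leaving out libraries. The donor block and leaving out both Control colon organoid libraries were chosen after seeing the data. Sums and shares over members were given no test.

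Named members were the 3 highest and the lowest of each complex, the 6 highest and 6 lowest calls of a comparison (with fewer calls, the 3 smallest p each way), the isoform families, the catalytic cores, and members without counts or with a reversed result. Donor numbers D1 to D4 recur under both treatments, so a number cannot be the same mouse in EtOH and Control. Within a treatment it may be. Nothing else says which samples share a mouse or culture, so p-values measure the spread between these samples. No pair of replicates was as alike as repeat counts of 1 library would be (chi-square per degree of freedom 2.94 to 88.8 in 35 pairs). Counting intervals and floors cover counting error only. The annotation was GENCODE vM21.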

Additional observations from a re-analysis of the deposited data

Results flagged for a closer look

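In groups of 4 libraries, 133 sets of values were searched for a library far from the other 3, and 9 were found, where chance gives about 1 in 20 (5%). In EtOH colon tissue, library 2 had the highest sum of complex II (1593 CPM) and of complex III (4736 CPM) and the highest Atp5g3 (3248 CPM), and library 4 had the lowest Ndufb4 (64.3 CPM) and the lowest Ndufb3 (219 CPM). Sdha was low in Control jejunum organoid library 3 (494 CPM) and Cox7b in EtOH jejunum organoid library 4 (487 CPM). Cox8b was counted in 1 library each of EtOH jejunum tissue (0.263 CPM, library 4) and Control jejunum organoids (0.459 CPM, library 3), with 0 in the other 3 libraries of the group.

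Effects of 2 kinds differed between groups by a test of the difference. In organoids, 12 members had an ethanol effect that differed by segment in edgeR (10 upward and 2 downward, against 7.6% and 2.0% of all genes), but limma-voom with group weights called 0 members and 0 genes. In edgeR 63 members had a colon-jejunum gap that was lower in organoids than in tissue, against 31.0% of all genes.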

How the results depend on the processing

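The number of members called kept within 1.5 times its value, and with its main direction, in the comparisons of segment and culture under every alternative run but one. Taking the donor number within a treatment as a block (replicate block) left 13 members called in colon organoids against tissue. In colon against jejunum organoids the same block left 45 lower and 0 higher of 78. There 1373 of 13170 genes were lower and 1098 higher. With the plain replicate block the counts were 58 and 38 lower in colon against jejunum organoids and colon organoids against tissue, 32 higher and 21 lower in colon against jejunum tissue, and 51 and 14 in jejunum organoids against tissue. The replicate numbers paired the samples in part at most: same-numbered libraries deviated together with correlations of -0.185 to 0.589. Between EtOH and Control, 3 of 3 correlated best with their own number in jejunum tissue (0.097 to 0.146). The same held for 3 of 4 in jejunum organoids (-0.185 to 0.336) and 2 of 4 in colon tissue (-0.116 to 0.589). In colon organoids it held for 2 of 2, both at 0.006, where 2 libraries a group make these values equal by construction. In each other pair of groups it held for at most 1.

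For ethanol in colon organoids 1 member was called with no filter, 1 with the replicate block and 23 with all organoid groups in 1 fit. For the difference of the ethanol effect between organoids DESeq2 called 21 and limma-voom with group weights 0. Leaving out 1 library at a time gave 0 to 20 calls for ethanol in colon organoids and 8 to 46 for that difference (46 without Control colon organoid 1, 19 without 2), 0 for ethanol elsewhere, and 59 to 66, 49 to 54, 48 to 55 and 64 to 67 for segment in organoids, segment in tissue, culture in colon and culture in jejunum. Leaving out 1 library moved Cox7a1 between -2.06 and 8.58 for ethanol in colon organoids and between -2.49 and 8.82 for the difference between segments, with the positive values (adjusted p = 0.0196 and 0.00523) without Control colon organoid 2, since the other Control library had 0 counts. Without the 2 Control colon organoid libraries Cox6b2 turned to 0.76 for the difference of the gap (adjusted p = 0.525). Without TMM, Ndufa4 (0.42) and Sdhd (0.39) turned in colon against jejunum tissue.

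Summed levels with TMM factors were 18616 CPM in EtOH colon organoids, 30565 CPM in EtOH colon tissue, 29592 CPM in EtOH jejunum tissue and 26396 CPM in Control jejunum tissue. With Rn45s in the total they were 11298 and 11386 CPM in EtOH and Control colon organoids, 26405 and 26477 CPM in EtOH and Control jejunum organoids, 24585 and 23658 CPM in EtOH and Control colon tissue, and 8885 and 4372 CPM in EtOH and Control jejunum tissue. Without Atp5g3 they were 18575, 30930.1, 30607, 30439 and 22943 CPM in EtOH colon organoids, EtOH jejunum organoids, Control jejunum organoids, EtOH colon tissue and EtOH jejunum tissue. Leaving out 1 library moved them between 19542 and 20185 CPM in EtOH and 14088 and 19505 CPM in Control colon organoids, 33778 to 35298 and 33331 to 34512 CPM in EtOH and Control jejunum organoids, 32175 to 33779 and 29253 to 32306 CPM in EtOH and Control colon tissue, and 24106 to 24912 and 20875 to 24244 CPM in EtOH and Control jejunum tissue. Depth limits the members under 10 CPM most.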
